A study of Mus musculus with 2 samples.

Results

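The genes that copy DNA and supply its building blocks were examined in the heart of the newborn mouse. The set held 37 genes of the 43346 in the deposited gene tables, chosen by name for their known roles. Earlier results of these data were known when the choice was made. By step, it comprised 10 genes of origin binding and licensing, 6 of helicase activation, 6 of primase and the replicative polymerases, 3 of single-strand binding, 6 of the sliding clamp and its loader, 2 of Okazaki fragment joining and 4 of nucleotide supply. All 37 symbols were found in the tables.

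A cell that is about to divide first licenses its replication origins, when the origin recognition complex, Cdc6 and Cdt1 load the ring of Mcm2 to Mcm7 onto DNA. In S phase, Cdc45 and the GINS complex join that ring to form the active helicase, primase and the polymerases synthesise the new strands, and ribonucleotide reductase, thymidylate synthase and thymidine kinase keep the deoxynucleotide pools filled. Many of these genes are known targets of E2F transcription factors, and heart muscle cells of the mouse still synthesise DNA in the days around birth before most of them leave the cell cycle.

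The study profiled 1 group, heart tissue of B6NTac;B6NCrl/Lap mice taken at postnatal day 0 from animals of mixed sex, with 2 biological replicates. Replicate 1 pooled 15 mice, the labels do not say how many were pooled for replicate 2, and both carried the same donor label. Total RNA above 200 nt was depleted of ribosomal RNA, supplemented with spike-in RNAs and sequenced as stranded read pairs. The series held no second condition, so levels are described within newborn heart and no test between groups was possible.

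Expected counts, the estimated number of fragments per gene, summed over genes to 69946215 in replicate 1 and 73615802 in replicate 2. Levels are given as TPM, an abundance per length relative to the whole library. Protein-coding genes held 33.3% of TPM in replicate 1 and 33.6% in replicate 2, so TPM values here are not on the scale of libraries made from messenger RNA alone. All 8 heart muscle markers were detected, at a summed 11529.5 TPM in replicate 1 and 11652 TPM in replicate 2. Of these markers 3 were lower and 5 higher in replicate 2, with Myl7 at 708 TPM in replicate 1 and 406 TPM in replicate 2.

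The stretches just upstream of these genes are shown first, because, of the 5 motifs searched, the E2F-type motif had a share in the set that was the largest multiple of its share in other genes. A RefSeq promoter entry of the GRCm38.p6 build, running from 250 bases before to 50 bases after an annotated start, was matched for 30 of the 37 genes. Mcm4, Gins1, Gins2, Gins4, Rfc2, Pole and Prim2 had no entry. The E2F-type words TTTGGCGC, TTTCCCGC, TTTGCCGC and TTTCGCGC were searched on both strands, and overlapping matches were counted separately. At least 1 of them stood in the promoters of 12 of the 30 genes, or 40.0%, against 2.60% of all 27025 genes in the table and 4.82% of the 8067 with an entry that were detected in these libraries. The 12 genes were Orc1, Cdc6, Cdt1, Mcm3, Mcm5, Mcm6, Mcm7, Gins3, Pola1, Pold1, Rfc3 and Lig1. Of their 18 E2F-type matches, 4 began within the 100 bases before the start and 7 began after the stretch upstream of it. In Cdt1, Mcm3, Pold1 and Lig1 every match lay downstream of the start, so none would appear in an upstream stretch. In the stretches below, 170 bases upstream of the start are given 5′ to 3′ along the gene's own strand, with the E2F-type words in capitals; a word read on the other strand appears as its reverse complement. Mcm6 (chr1:128359706-128359875, minus strand) held 3 words, of which the first pair overlapped and began at positions -110 and -106 from the start, while the last began at -47. Mcm5 (chr8:75109339-75109508, plus strand) held an overlapping pair of words beginning at -153 and -149. Pola1 (chrX:93632156-93632325, minus strand) held 1 word, beginning at -138.
Mcm6: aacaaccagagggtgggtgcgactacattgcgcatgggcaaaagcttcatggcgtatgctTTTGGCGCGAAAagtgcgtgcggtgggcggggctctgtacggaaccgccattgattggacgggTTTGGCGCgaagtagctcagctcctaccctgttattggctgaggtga
Mcm5: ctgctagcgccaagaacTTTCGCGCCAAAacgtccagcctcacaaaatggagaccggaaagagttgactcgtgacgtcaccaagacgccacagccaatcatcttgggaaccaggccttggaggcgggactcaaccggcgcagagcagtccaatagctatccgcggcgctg
Pola1: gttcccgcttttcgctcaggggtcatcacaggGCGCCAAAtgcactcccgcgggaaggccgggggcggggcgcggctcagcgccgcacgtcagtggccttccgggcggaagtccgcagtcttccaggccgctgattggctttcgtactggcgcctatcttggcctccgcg

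The CCAAT box, the word bound by the factor NF-Y, was present in 20 of the 30 promoters, or 66.7%, against 41.1% of all genes and 42.8% of detected genes. Of 39 CCAAT matches over the 34 entries of these genes, 26 began within the 100 bases before the start. Positions of either motif in other genes were not counted, so these position counts describe the set alone. The next stretches, also 170 bases long and with CCAAT or its reverse complement ATTGG in capitals, come from a ring subunit and from both subunits of ribonucleotide reductase. Mcm3 (chr1:20820313-20820482, minus strand) held 3 such words, Rrm1 (chr7:102441525-102441694, plus strand) held 2 and Rrm2 (chr12:24708084-24708253, plus strand) held 1.
Mcm3: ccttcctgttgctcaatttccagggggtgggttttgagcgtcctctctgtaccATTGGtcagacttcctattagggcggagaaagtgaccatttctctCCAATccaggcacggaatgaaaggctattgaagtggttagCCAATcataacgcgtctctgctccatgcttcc
Rrm1: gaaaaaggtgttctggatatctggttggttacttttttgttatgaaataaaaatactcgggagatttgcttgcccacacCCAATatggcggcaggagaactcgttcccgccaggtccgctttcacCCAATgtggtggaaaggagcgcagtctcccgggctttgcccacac
Rrm2: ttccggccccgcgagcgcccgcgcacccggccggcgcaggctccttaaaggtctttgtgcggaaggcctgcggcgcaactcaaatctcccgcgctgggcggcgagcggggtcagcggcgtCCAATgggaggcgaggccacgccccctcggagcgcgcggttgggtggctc

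Motifs were unevenly placed among the steps. Of the 9 licensing genes with an entry, 7 held an E2F-type word and 7 a CCAAT box. None of the 4 nucleotide supply genes and none of the 3 single-strand binding genes held an E2F-type word in this window, while all 3 of the single-strand binding genes held a CCAAT box. Both motifs were present together in 8 genes, and neither was present in Pola2, Rfc4, Rfc5, Fen1, Tyms and Tk1. The GC box GGGCGG was found in 22 of the 30 promoters, or 73.3%, close to the 72.0% of detected genes. The cell cycle element TTTGAA or TTCGAA was found in 6, or 20%, against 16.0% of detected genes, and the E-box CACGTG in 6, or 20%, against 12.2%. Mean GC content was 58.6% over the set, 53.6% over all genes in the table and 61.6% over detected genes. Genes with an E2F-type word had a median level of 5.14 TPM (n = 12) and those without had 7.28 TPM (n = 18), with ranges from 0.445 to 18.5 TPM and from 0.955 to 40.6 TPM. A match of letters is a description of the sequence, and binding was not measured.

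**Figure D1:**
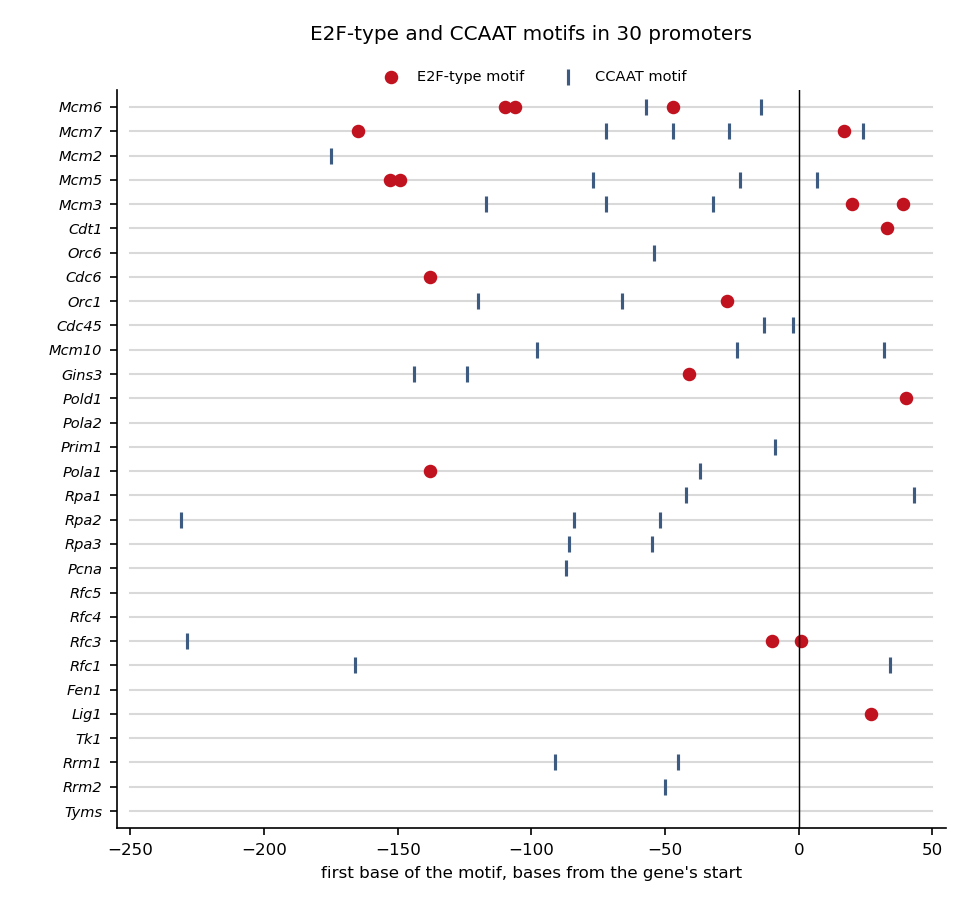
Each row is 1 of the 30 genes with a promoter entry, and the horizontal axis gives the first base of a motif in bases from the annotated start of its entry. Red circles are E2F-type words (12 genes) and blue bars are CCAAT words (20 genes), and genes are ordered by step of replication and then by level.

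Most genes of the replication machinery were detected in both replicates. A level of 1 TPM or more in both replicates, called detected here, was reached by 30 of the 37 genes, where 24.2% of all genes and 47.1% of protein-coding genes reached it. Gins1 and Lig1 passed 1 TPM in replicate 1 alone, Mcm10, Gins3 and Pola1 in replicate 2 alone, and Orc1 and Cdc6 in neither. The median of the mean levels was 5.96 TPM over the 37 genes and 8.12 TPM over the 30 detected ones, beside 7.46 TPM over all detected genes. Levels spanned 91.3-fold, with Pcna at a mean of 40.6 TPM and Orc1 at 0.445 TPM. The 5 most abundant genes, Pcna, Rpa1, Tk1, Rrm1 and Rrm2, held 40.3% of the summed level. That sum was 369 TPM in replicate 1 and 329 TPM in replicate 2, a mean of 349 ± 28.2 TPM (SD, n = 2). As a share of expected counts, the set took 0.103% in replicate 1 and 0.0863% in replicate 2. In bulk RNA of a tissue, fewer cells of a type and less RNA per cell cannot be told apart.

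**Figure D2:**
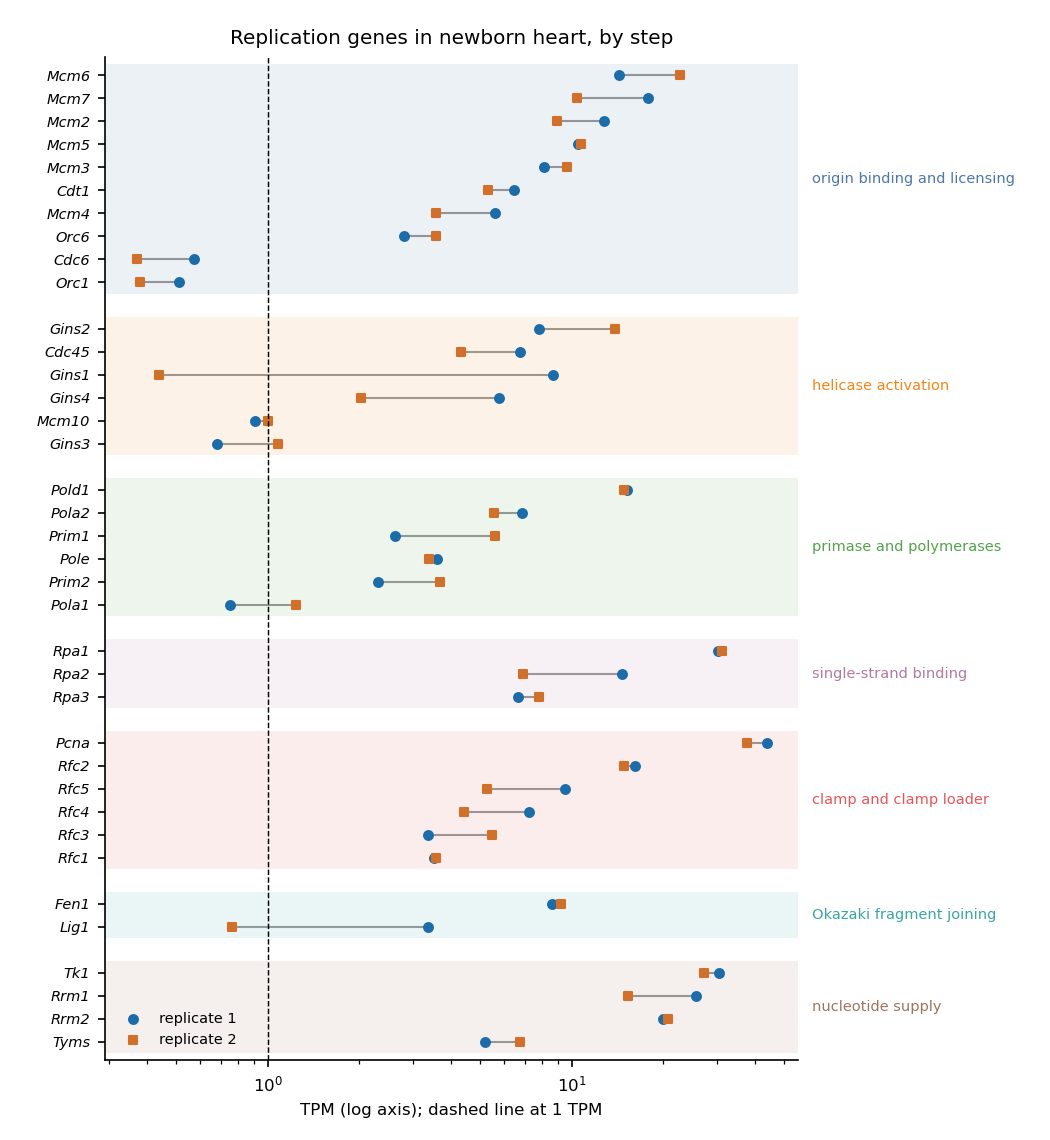
Level of each of the 37 genes in TPM on a log axis, with replicate 1 as blue circles, replicate 2 as orange squares and a line joining them, grouped by step. Pcna is highest at 43.6 and 37.6 TPM, Orc1 and Cdc6 lie below the dashed line at 1 TPM in both replicates, and Gins1 has the widest gap.

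Among the origin-binding and licensing genes, each ring subunit gene had a higher level than Orc1 and Cdc6 in both replicates. Orc1, the largest subunit of the origin recognition complex and an ATPase, was at 0.51 TPM in replicate 1 and 0.38 TPM in replicate 2, from 147 and 114 counts. Cdc6, the ATPase that joins that complex to recruit the ring, was at 0.57 and 0.37 TPM. Both genes thus stayed below the detection level in each replicate. Orc6, the smallest subunit of the complex, was at 2.80 TPM in replicate 1 and 3.56 TPM in replicate 2. Cdt1, which carries the ring to origins, was at 6.46 and 5.30 TPM. The log2 ratio of Cdc6 over Cdt1, with 0.1 TPM added to each level, was -3.29 in replicate 1 and -3.52 in replicate 2.

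The 6 ring subunits, which assemble in equal numbers in the helicase, were within 4.03-fold of each other in mean TPM. Mcm6 had the highest mean, from 14.3 TPM in replicate 1 and 22.7 TPM in replicate 2, and Mcm4 the lowest, from 5.60 and 3.58 TPM. Mcm7 was at 17.8 and 10.4 TPM, and Mcm2 at 12.8 and 8.93 TPM. Mcm5 was nearly the same in both replicates, at 10.5 and 10.7 TPM, and Mcm3 was at 8.12 and 9.64 TPM. The order of the subunits was not stable: Mcm7 led in replicate 1 and Mcm6 in replicate 2, and only Mcm4 kept its place, the last. The spread of the ring was 3.17-fold in replicate 1 and 6.34-fold in replicate 2, and over protein-coding transcripts alone 2.58-fold and 4.05-fold.

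Of the genes that turn the ring into an active helicase, 3 of 6 were detected. Cdc45, which bridges the ring and GINS, was at 6.75 TPM in replicate 1 and 4.31 TPM in replicate 2. Mcm10, which acts when the helicase starts to unwind DNA, lay at the detection level with 0.91 and 1.00 TPM. The 4 GINS subunits, which form a complex of equal parts, differed 12.3-fold in mean TPM, and 12.8-fold and 31.4-fold within replicates 1 and 2. Over protein-coding transcripts alone, which are described further below, these spreads were 7.02-fold, 9.46-fold and 5.77-fold. Gins1 (ENSMUSG00000027454.6, GRCm38 chromosome 2, 150905400 to 150931280, plus strand) was at 8.68 TPM in replicate 1 and 0.44 TPM in replicate 2, from 294 and 34 counts. Gins4 was at 5.77 and 2.02 TPM, from 655 and 241 counts. Both were thus lower in replicate 2, whereas the other two subunits were higher there. Gins2 was at 7.77 TPM in replicate 1 and 13.8 TPM in replicate 2, and Gins3 was at 0.68 and 1.08 TPM.

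Primase and polymerase genes were below 7 TPM in each replicate, except for Pold1. Pold1, the catalytic subunit of the polymerase that extends the lagging strand, was at 15.2 TPM in replicate 1 and 14.9 TPM in replicate 2. Pole, the catalytic subunit of the leading-strand polymerase, was at 3.59 and 3.38 TPM. Pold1 was 2.05 and 2.10 above Pole on the log2 scale, just under the limit used below for unequal pairs. In protein-coding transcripts alone Pold1 had 6.64 TPM in replicate 1 and 7.39 TPM in replicate 2, and Pole had 2.61 and 3.35 TPM, with Pold1 above Pole by 1.31 and 1.12. Pold1 transcripts missing from the annotation used for biotypes were left out there. Among them 1 held 30.6% of Pold1 TPM in replicate 1 and another 13.6% in replicate 2. Of the complex that lays down primers, Pola1, its polymerase subunit, was at 0.75 TPM in replicate 1 and 1.24 TPM in replicate 2, and Pola2, its accessory subunit, at 6.85 and 5.56 TPM. Prim1, the catalytic primase subunit, was at 2.62 and 5.58 TPM, and Prim2, the large primase subunit, at 2.30 and 3.67 TPM. Within this complex Pola1 was the lowest in each replicate, and the spread was 6.24-fold in mean TPM.

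Single-strand binding genes were all detected. Rpa1, the large DNA-binding subunit of replication protein A, which coats exposed single strands, was the second most abundant gene of the set with 30.1 TPM in replicate 1 and 31.2 TPM in replicate 2. Rpa2, the middle subunit, was at 14.6 and 6.91 TPM, from 2350 and 1057 counts. Rpa3, the small subunit, was at 6.64 and 7.78 TPM. Rpa1 led in both replicates, and the order of Rpa2 and Rpa3 differed between them.

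The sliding clamp was the most abundant member. Pcna (ENSMUSG00000027342.10, chromosome 2, 132249162 to 132253314, minus strand), the ring that tethers polymerases to DNA, was at 43.6 TPM in replicate 1 and 37.6 TPM in replicate 2. Its loader, the RFC complex, was lower throughout. Rfc2 was at 16.1 and 14.8 TPM, and Rfc5 at 9.47 and 5.24 TPM. Rfc4 was at 7.20 TPM in replicate 1 and 4.43 TPM in replicate 2, and Rfc3 at 3.36 and 5.44 TPM. Rfc1, the large subunit, was at 3.53 and 3.57 TPM. Rfc2 was the highest loader subunit in each replicate, and the 5 subunits spanned 4.35-fold in mean TPM. All 6 genes of this step were detected.

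The Okazaki fragment genes were Fen1, with similar levels in both replicates, and Lig1, which was higher in replicate 1. Fen1, the nuclease that trims the flap between fragments, was at 8.58 TPM in replicate 1 and 9.22 TPM in replicate 2. Lig1 (ENSMUSG00000056394.13, chromosome 7, 13277283 to 13311433, plus strand), the ligase that seals the nicks, was at 3.37 and 0.76 TPM, from 616 and 226 counts.

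Nucleotide supply genes had the highest median of the 7 steps, 20.4 TPM, and all 4 were detected. Tk1, the cytosolic thymidine kinase that salvages thymidine, was at 30.6 TPM in replicate 1 and 27.1 TPM in replicate 2. Rrm1, the large subunit of ribonucleotide reductase, was at 25.6 and 15.3 TPM, from 10008 and 6290 counts, the most counts of any gene in the set. Rrm2, the small subunit made in S phase, was at 19.99 and 20.6 TPM. The 2 subunits, which the enzyme needs together, had means within 1.01-fold of each other, but Rrm1 was the higher in replicate 1 and Rrm2 in replicate 2. Tyms, which makes thymidylate from deoxyuridylate, was at 5.18 TPM in replicate 1 and 6.73 TPM in replicate 2. By summed mean TPM, licensing held 22.2% of the set, clamp and loader 22.1%, nucleotide supply 21.6%, single-strand binding 13.9%, polymerases 9.39%, helicase activation 7.62% and Okazaki joining 3.14%.

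Replicates were compared gene by gene as the log2 ratio of replicate 2 over replicate 1, with 0.1 TPM added and centred so that the median over genes with a mean level of at least 1 TPM was 0. With 1 library on each side these ratios have no error of their own, and at postnatal day 0 both belong to the same group. Of the set, 32 genes entered, beside 11594 genes in all; Orc1, Cdc6, Mcm10, Gins3 and Pola1 lay below the filter, and Gins1 and Lig1 passed it through replicate 1 alone. Their median was -0.12, with 19 genes lower and 13 higher in replicate 2, where 50.0% of all genes were lower. A difference of 2-fold or more in the lower direction was seen in Gins1, Lig1, Gins4 and Rpa2, with log2 ratios of -4.05, -2.03, -1.49 and -1.09. These 4 were 12.5% of the 32, beside 8.90% of all genes. In the higher direction Prim1 alone passed 2-fold, with 1.04, or 3.13% of the set beside 10.1% of all genes. The median size of the difference in either direction was 0.44 over the set and 0.40 over all genes. The set therefore stood near the background between these libraries, and its 2-fold counts are not a result about replication genes.

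The TPM intervals deposited by the authors, whose level is not given in the sources used here, did not overlap between replicates for 21 of the 32 genes, or 65.6%, beside 73.3% of all genes. Of these 21 genes, 14 were lower in replicate 2 and 7 were higher. Of all 11594 genes, 8500 had intervals that did not overlap. In replicate 2, 4126 of those 8500 were lower, or 35.6% of the 11594. By expected counts, scaled to library totals and not divided by length, the same 4 genes were 2-fold lower, beside 6.69% of all genes, and none was 2-fold higher, beside 7.83%. Prim1 was at 0.49 by counts. The effective length assigned to a gene differed by 1.25-fold or more between replicates for 6 of the 32, or 18.75%, beside 22.0% of all genes.

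**Figure D3:**
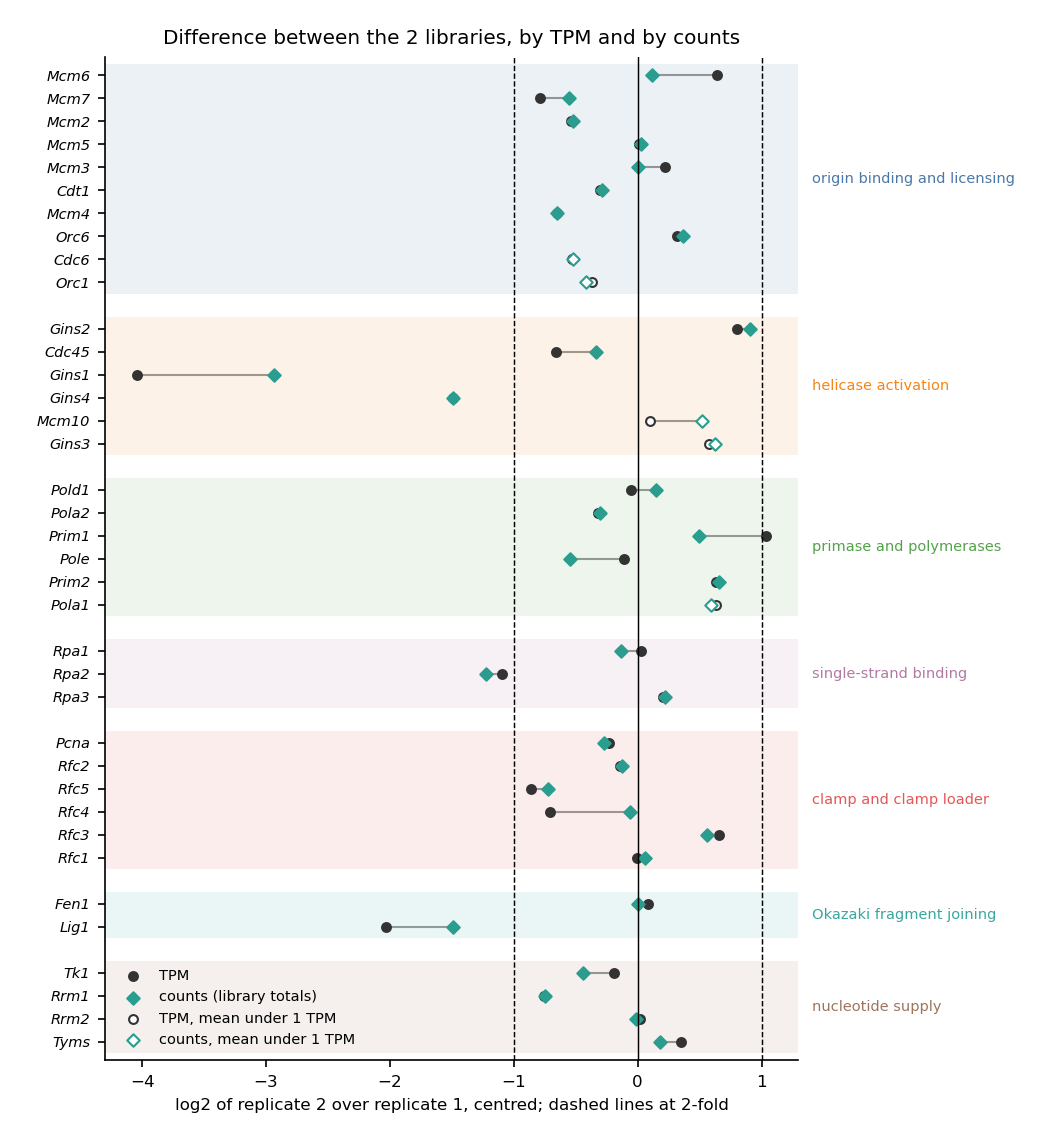
Log2 ratio of replicate 2 over replicate 1 for each gene, centred on the median of all genes, with TPM as dark circles and counts scaled to library totals as green diamonds; open symbols are the 5 genes under a mean of 1 TPM. Gins1, Lig1, Gins4 and Rpa2 lie beyond the lower 2-fold line on both scales, while Prim1 passes the upper line by TPM alone.

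A list of 28 mitosis genes, among them the cyclin genes Ccnb1 and Ccnb2 and the kinase gene Aurkb, was set beside the replication genes. Of these 26 were detected, and of the 27 that passed the filter 23 were lower and 4 higher in replicate 2, with a median of -0.59 by TPM and -0.54 by counts. Their summed level was 453 TPM in replicate 1 and 301 TPM in replicate 2. The replication genes' median of -0.12 by TPM and -0.13 by counts was nearer to the 0 of all genes, and the difference between the lists was not tested. Lower mitosis genes in replicate 2 were already known from earlier results when the lists were chosen. Markers of other tissues also differed between the replicates. The 14 thymus and lymphocyte markers summed to 9.03 TPM in replicate 1 and 0.72 TPM in replicate 2, with none detected in both and Cd3e and Dntt at 0 in both. Rag1, the lymphocyte recombinase gene, had 2138 counts in replicate 1 and 8 in replicate 2. The 8 markers of urothelium and other epithelium, of which 4 were detected, summed to 19.2 and 148.7 TPM, and none was at 0 in both. The erythroid list, with 12 of 13 markers found, 6 detected and 1 at 0 in both, summed to 3122 and 3745 TPM. Markers of other heart cells were all detected. The 6 fibroblast markers were each higher in replicate 2 and summed to 386 and 509 TPM, and the 6 endothelial markers summed to 219 and 205 TPM. The part of these tissues and cells in the levels of the replication genes was not tested.

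Transcript estimates showed which genes' TPM rested on protein-coding messages. The tables held 168 transcripts of the set, of which 159 matched GENCODE M21. The transcript with the largest share of a gene's TPM was the same in both replicates for 31 of the 37 genes, of which 8 have 1 transcript and could not differ, and for 23 of the 29 with at least 2. The exceptions were Orc6, Mcm10, Gins1, Prim1, Rfc1 and Fen1. Among genes with at least 2 transcripts and a mean of 5 TPM, it was the same for 16 of 17 in the set, or 94.1%, beside 71.8% of 5113 genes in all. Protein-coding transcripts held 80% or more of TPM in both replicates for 22 of the 37 genes. Transcripts not in M21 were not counted as protein-coding.

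In several of the other genes short non-coding transcripts took a larger share of the TPM than of the counts. Gins2 is the clearest case: its retained-intron transcript of 511 nt took 92.2% of TPM in replicate 1 and 91.2% in replicate 2, but 42.0% and 39.0% of counts. Its protein-coding transcript was at 0.61 and 1.22 TPM, so the leading place of Gins2 within the GINS complex was not kept when coding transcripts alone were counted. Rpa1 had a retained-intron transcript of 716 nt with 47.7% of TPM in replicate 1 and 53.5% in replicate 2, and its coding transcripts summed to 15.8 and 14.5 TPM. Both genes kept this make-up in each replicate.

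For other genes the make-up changed between the replicates. Mcm6 had 14.1 and 14.5 TPM in its coding transcripts, and a retained-intron transcript of 588 nt went with 0.15 TPM in replicate 1 and 8.13 TPM in replicate 2, so the difference of 0.64 by TPM was 0.12 by counts. Prim1 had 2.55 TPM of coding transcripts in replicate 1 and 2.22 TPM in replicate 2, where a retained-intron transcript of 760 nt added 3.19 TPM. Gins1 had 0.76 TPM of coding transcript in replicate 1 and 0.35 TPM in replicate 2, and a processed transcript of 648 nt, a class with no annotated reading frame, at 5.75 TPM in replicate 1 was at 0 in replicate 2. The large gap in Gins1 thus lay mostly in non-coding entries. Tk1 had 19.6 TPM of coding transcript in replicate 1 and 10.5 TPM in replicate 2. Lig1 was led in both replicates by a processed transcript of 2968 nt, with 55.9% and 94.7% of its TPM. In Rfc1 the leading transcript of replicate 1 was not in M21, so its low coding share of 8.22% there reflects the annotation used for names. Over coding transcripts alone, 28 genes remained at 1 TPM or more in both replicates. Rfc1 was not among them, with 0.29 TPM from coding transcripts of M21 in replicate 1.

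**Figure D4:**
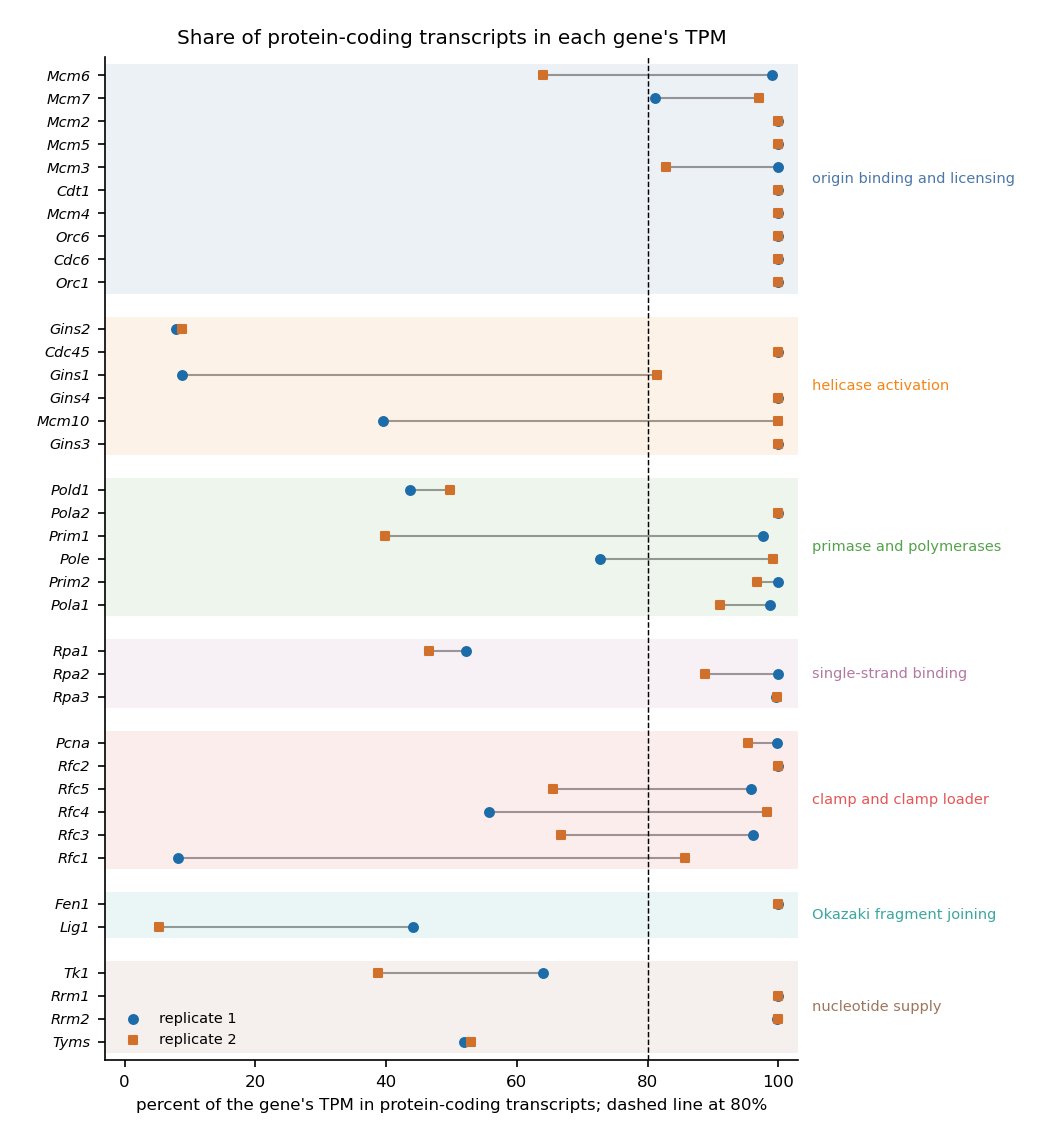
Percent of each gene's TPM that lies in transcripts annotated as protein-coding in GENCODE M21, with replicate 1 as blue circles and replicate 2 as orange squares. In 22 genes both points lie at or right of the dashed line at 80%, Gins2 is under 10% in both replicates, and Mcm6, Prim1, Gins1 and Rfc1 change between replicates.

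Gene structure limited some of these values. Exons of 12 of the 37 genes overlap those of a gene on the opposite strand, as Cdc45 does with Ufd1, Tk1 with Afmid and Gins2 with Gse1. The library was stranded, but whether the authors' counting used strand is not given in the sources used here. Counts of Cdc45, Tk1 and Gins2 were whole numbers, as were those of Ufd1 and Gse1. Afmid had 681 counts in replicate 1 and 840.83 in replicate 2. Whether reads of the overlapping stretches were assigned to the right strand was not tested. Without such an overlap between the starts, 11 of the 37 genes, some of them among those 12, begin within 1000 bases of a divergent gene, as Mcm4 does with Prkdc. Processed pseudogenes at 90% identity or more over at least 300 bases were found for 7 genes other than Tyms. For Pcna the pseudogene Pcna-ps2, 99.2% identical, had 26.9 counts in replicate 1 and 10.9 in replicate 2, beside 5653 and 4947 of Pcna, and Pcna was the only gene of the set with counts that were not whole numbers. A stretch of 301 to 372 bases of the Tyms transcript matched transcripts of 124 other genes.

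Pairs of related genes were compared within each replicate, to ask which of 2 alternative or partner genes was the more abundant. Unequal here means a log2 TPM ratio beyond 2.15 on the same side in replicate 1 and in replicate 2. That limit is the 95th percentile of how far genes differed, in either direction, from 1 replicate to the other. Of 24 pairs, 21 leaned the same way in both replicates and 10 were called unequal, but none was with the limit at the 99th percentile, 4.85. How many pairs of other genes would pass the limit was not counted. The number called is therefore not a result about replication genes. Several of these set an S-phase gene of the set against a relative that works outside replication. Rrm2 exceeded Rrm2b, the small reductase subunit used outside S phase and after DNA damage, by 3.13 in replicate 1 and 3.76 in replicate 2. Tk1 exceeded Tk2, the mitochondrial thymidine kinase, by 4.28 and 4.17, with Tk2 at 1.48 and 1.41 TPM. Mcm7 exceeded Mcm8 by 4.16 and 4.04, and Mcm9 by 4.16 and 3.77. Mcm8 and Mcm9, which act together in recombination, were below 1 TPM in both replicates.

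Other called pairs were between partners in replication. Fen1 exceeded Dna2, the nuclease and helicase that cuts long flaps, by 3.21 in replicate 1 and 4.82 in replicate 2. Pcna exceeded Rfc1 by 3.59 and 3.36. In 3 pairs the second gene was the higher: Orc1 stood below Orc2, another subunit of the origin recognition complex, with -4.67 and -2.92, below Orc6 with -2.25 and -2.93, and Cdc6 stood below Cdt1. The call of Orc1 against Orc6 was lost with a pseudocount of 1 TPM. By counts over the mean effective length of each gene, Orc1 against Orc2 was at -3.81 in replicate 1 and -3.84 in replicate 2.

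Pairs that were not called included some near equality. Cdt1 against its inhibitor geminin, encoded by Gmnn, was at -0.26 in replicate 1 and -0.49 in replicate 2. Prim1 against Prim2 was at 0.18 and 0.59, Rrm1 against Rrm2 at 0.35 and -0.43, and Pold1 against Polg, the mitochondrial polymerase gene, at -0.22 and 0.81. Lig1 lay below Lig3, a ligase of repair and of mitochondrial DNA, by different amounts, at -0.91 and -3.43. Rpa1 over Rpa2 was at 1.04 and 2.16, and Pola1 over Pola2 at -3.03 and -2.08, so that each passed the limit in 1 replicate alone.

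**Figure D5:**
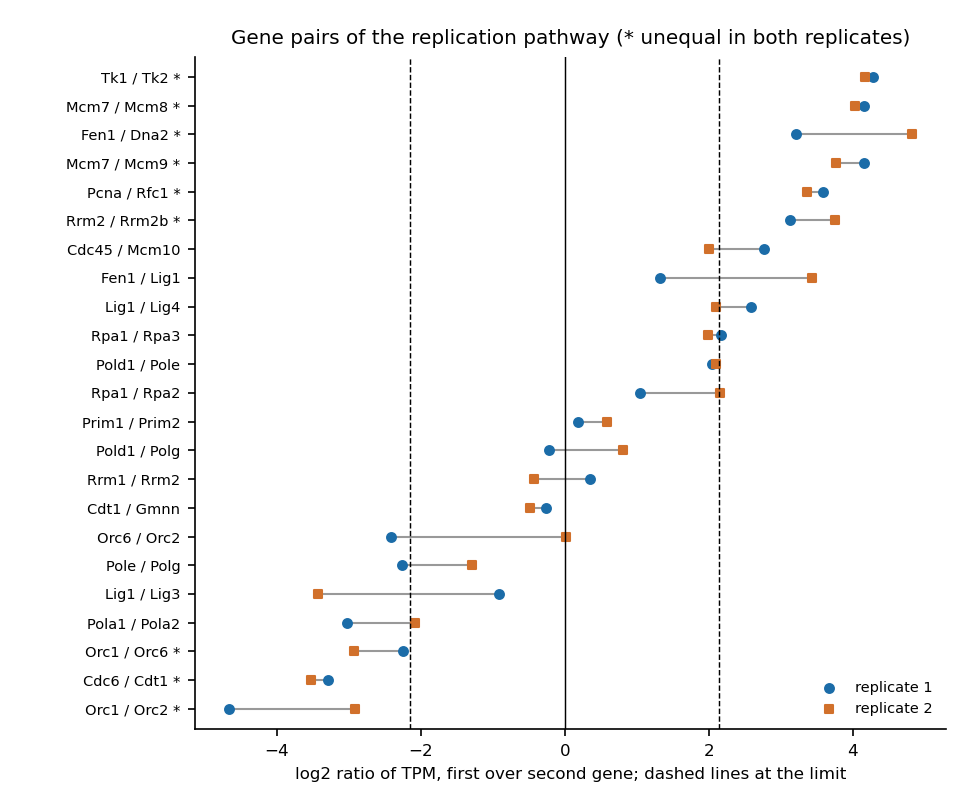
Log2 ratio of TPM, first over second gene, for 23 of the 24 pairs, with replicate 1 as blue circles, replicate 2 as orange squares and dashed lines at the limit of 2.15 in each direction. The 9 starred pairs lie beyond the limit on the same side in both replicates, 6 with the first gene higher and 3 with the second.

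Around the set, 58 further genes of replication and nucleotide metabolism were listed as partners. Of these 46 were detected, and of the 46 that passed the filter on mean level 28 were lower and 18 higher in replicate 2, with a median of -0.15. A 2-fold difference was seen in 7 in the lower direction, or 15.2%, beside 8.90% of all genes, and in 5 in the higher one, or 10.9%, beside 10.1%. Chtf8, a subunit of an alternative clamp loader, had the highest mean level, from 47.0 TPM in replicate 1 and 26.3 TPM in replicate 2. Asf1b, a histone chaperone, was at 40.4 and 28.8 TPM, and Shmt2, the mitochondrial enzyme that feeds carbon units to folate, at 34.5 and 26.3 TPM. Dut, which removes dUTP from the nucleotide pool, was at 19.9 TPM in replicate 1 and 24.6 TPM in replicate 2. Top2a, which untangles the copied strands and is also on the mitosis list, was at 23.7 and 13.9 TPM, and Ctps, which makes CTP, at 16.0 and 21.1 TPM. Partners under 1 TPM in both replicates were Mcm8, Mcm9, Ticrr, Recql4, Pole2, Dna2, Lig4 and Dscc1.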

How the data were processed

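Per the labels, the authors depleted total RNA of newborn mouse heart of ribosomal RNA and sequenced stranded pairs. Per the submitters' processing notes, mm10 and GENCODE M4 were used; the sources used here name neither aligner nor counting settings. The deposited expected counts are estimated fragments per gene or transcript, without normalization. The deposited TPM are these divided by effective length and scaled over all entries of a library. The authors' FPKM served as an alternative. Each transcript's percent of its gene's TPM was also deposited, with TPM interval bounds.

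Names, coordinates and biotypes came from GENCODE M21 (GRCm38, the same assembly), matched by identifier for 42462 genes. The genes named were all 37 members, the genes of 24 pairs (1 called pair is not reported here), the 6 partners of highest mean TPM and partners under 1 TPM in both replicates; other mitosis and marker genes named were chosen after their values were seen. The members and lists were chosen with earlier results of these data known, including lower mitosis genes in replicate 2. Alternatives changed thresholds, pseudocount, scaling, filter and replicate. With 2 samples of 1 group, conditions could not be compared. Rounded counts gave TMM factors with edgeR 4.0.16 (R 4.3.3). Copies were sought with BLAST 2.17.0. Python 3.11.15, numpy 2.4.6, pandas 2.3.3 and matplotlib 3.10.9 were used. The calculation of 2-fold calls was checked on simulated counts with larger planted changes, equal effective lengths in both libraries and counting noise alone. That check does not measure the error of the calls between the real libraries.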

Additional observations from a re-analysis of the deposited data

How the results depend on the processing

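No paired analysis was possible because the series has 1 group. Requiring 5 TPM in both replicates left 20 partner genes in place of 46. With TPM rescaled over protein-coding genes alone, the members summed to 1044 TPM and their median was 17.8 TPM. The count of members 2-fold lower in replicate 2 was 1 with a filter at a mean of 5 TPM, where fewer genes were tested. The count 2-fold higher was 0 with a pseudocount of 1 TPM, with counts not divided by length, with TMM factors, with that filter and with spike-in scaling. Spike-in scaling moved the median of all genes to -0.20, with 23 members lower and 9 higher. Unequal pairs numbered 0 with the limit at the 99th percentile, 16 with counts over the mean effective length, and 13 to 16 when either replicate was left out. The same leading transcript was counted in 16 members when a mean of 5 TPM and 2 transcripts were required, where fewer genes were tested. Coding transcripts alone, an alternative chosen after seeing the data, moved the mean level of 8 of the 37 members by more than the spread between replicates, and posterior means moved 3. When either replicate was left out, the ranges were 32 to 33 members detected, 47 to 49 partners detected, 329 to 369 TPM in sum, 5.56 to 6.85 TPM for the median and 1.67 to 2.66 for the log2 spread of the Mcm2 to Mcm7 levels. With 2 libraries, differences between replicates rest on 1 sample each, and genes with few counts, such as Gins1 with 34 in replicate 2, are the least precise.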

Other observations

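Mitochondrial DNA has its own replication machinery, and 2 of the 3 genes of it listed here were detected in both replicates. Polg, the polymerase, was at 17.7 TPM in replicate 1 and 8.42 TPM in replicate 2. Twnk, the helicase, was at 2.90 and 3.40 TPM, and Polg2, the accessory subunit of the polymerase, at 1.64 and 0.31 TPM. These 3 genes were chosen after their values were seen.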
